A study of Mus musculus with 8 samples.

Results

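A set of 10 genes that smooth muscle uses to contract was followed in RNA of the mouse esophagus: Acta2, Actg2, Myh11, Tagln, Cnn1, Des, Smtn, Lmod1, Synm and Mylk. They were taken as a named set of smooth muscle genes, and all 10 were found among the 49315 gene identifiers of the count tables. The animals were wild-type mice, labelled WT. In the SDS group (3 libraries) sodium dodecyl sulfate (SDS), a detergent of household products, was in the drinking water at 0.5% for 14 days, and in the control group (5 libraries) they drank untreated water and were sampled at day 14. No age, sex or strain is given beyond WT. Nor is it stated that the libraries are from different animals, and p-values therefore measure only how far these libraries spread, which may be technical.

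Smooth muscle shortens when myosin filaments pull on actin filaments. Calcium entering the cell binds calmodulin, which switches on myosin light chain kinase, and phosphorylation of the regulatory light chain lets the myosin head cycle; a phosphatase reverses this. Thin-filament proteins such as calponin and transgelin bind the actin, and desmin-type intermediate filaments tie the contractile lattice to dense bodies. Many of the genes are switched on by the serum response factor SRF and its partner myocardin through a DNA element called the CArG box. The outer muscle coat of the mouse esophagus is mostly striated, so that smooth muscle is found in the muscularis mucosae, in the lowermost coat and in the walls of vessels. Desmin and synemin belong to striated muscle too.

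Promoter windows from 250 bases before to 50 bases after the start site were matched in RefSeq (build GRCm38.p6) for 7 of the 10 genes, and 3 are shown because they contrast a gene that varied widely between libraries with 2 that varied little. Capitals mark CArG-like boxes, which carry 1 G or C inside the A and T core of the motif.
Acta2, chr19:34255324-34255623, minus strand: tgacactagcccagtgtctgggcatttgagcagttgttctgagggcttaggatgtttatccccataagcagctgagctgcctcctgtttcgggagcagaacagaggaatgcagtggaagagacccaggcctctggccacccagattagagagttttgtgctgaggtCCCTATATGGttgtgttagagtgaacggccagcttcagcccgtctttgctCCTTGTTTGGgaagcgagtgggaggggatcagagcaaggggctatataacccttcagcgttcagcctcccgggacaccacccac
Des, chr1:75360042-75360341, plus strand: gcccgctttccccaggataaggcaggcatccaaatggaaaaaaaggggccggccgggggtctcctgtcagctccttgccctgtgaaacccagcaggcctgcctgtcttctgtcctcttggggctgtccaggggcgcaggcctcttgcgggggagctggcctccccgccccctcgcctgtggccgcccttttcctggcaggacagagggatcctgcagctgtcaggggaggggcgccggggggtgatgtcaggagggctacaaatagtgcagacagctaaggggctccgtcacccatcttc
Synm, chr7:67759693-67759992, minus strand: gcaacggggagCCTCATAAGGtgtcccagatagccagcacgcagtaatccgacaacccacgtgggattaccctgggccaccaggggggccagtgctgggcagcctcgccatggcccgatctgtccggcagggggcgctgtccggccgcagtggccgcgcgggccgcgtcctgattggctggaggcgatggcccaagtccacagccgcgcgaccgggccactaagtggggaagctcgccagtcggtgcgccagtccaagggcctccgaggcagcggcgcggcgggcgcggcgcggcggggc
Both strands were searched. The Acta2 window held 2 CArG-like boxes, CCCTATATGG from -84 to -75 and CCTTGTTTGG from -34 to -25 relative to the start site, and the Synm window held 1, from -239 to -230. A window with such a box was found for 8.5% of 32851 RefSeq windows of the same length. The CArG box without the extra G or C was in none of the 7 windows and in 1.63% of all windows. Actg2, Myh11 and Tagln had no window and were not searched. The Mylk and Smtn windows lie wholly inside the genes as counted. Acta2 and Des as counted begin downstream of the RefSeq start sites used here, at 34255336 and 75360329. Box positions relative to the counted Acta2 start would differ. TATAAA was in none of the 7 and in 13.6% of all, while GGGCGG was in the windows of Des, Smtn and Lmod1 and in 35.7% of all. The matches of these motifs did not overlap each other.

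Total counts per library ranged from 24682611 to 26669024 in SDS and from 22033866 to 29802362 in controls. The 10 genes together took 0.477%, 0.294% and 0.203% of the counts in SDS libraries 1, 2 and 3, against 0.595%, 0.328%, 0.298%, 1.00% and 0.438% in control libraries 1 to 5. The labels name the esophagus, and while the treatment text speaks of the whole organ, the extraction text speaks of cell pellets. The tissue label was therefore checked against defining markers, and those of epithelium and striated muscle were both abundant. The squamous keratins and their partners summed to between 91445 and 153730.0 CPM (counts-per-million) in SDS and between 42369 and 138660.0 CPM in controls, and 20 striated muscle markers to between 19305 and 33604 CPM in SDS and between 39098 and 53756 CPM in controls. CPM were scaled by the trimmed mean of M-values (TMM).

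Per kilobase of exon, desmin was the most abundant of the set in both groups, with 1071 ± 389 TPM (transcripts-per-million, SD, n = 3) in SDS and 1741 ± 425 TPM (SD, n = 5) in controls. Acta2 came next, at 507 ± 343 TPM in SDS and 872 ± 765 TPM in controls, then Actg2 (198 ± 82.2 and 344 ± 373), Myh11 (152 ± 108 and 268.5 ± 286), Tagln (111 ± 62.6 and 191 ± 189) and Cnn1 (96.2 ± 62.5 and 180.1 ± 213), each given for SDS and then controls. The lower end held Synm (48.1 ± 17.4 TPM in SDS, 94.96 ± 27.1 TPM in controls), Smtn (45.9 ± 20.7 and 72.2 ± 46.6), Lmod1 (39.6 ± 20.3 and 81.2 ± 25.6) and Mylk (33.2 ± 24.5 and 61.2 ± 67.8). From Actg2 to Cnn1, and among the last 4, neighbouring levels lay closer together than their SD in each group, and Lmod1 stood above Smtn in controls but below it in SDS.

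None of the 10 genes was called in the comparison of SDS with control, which asks what 14 days of detergent in the drinking water did to the contractile program of the esophagus. With edgeR (quasi-likelihood, Benjamini-Hochberg) 0 of 10 passed, where 1.05% of 17179 tested genes passed, 0.623% higher and 0.425% lower. At an unadjusted p of 0.05, 3 of 10 lay lower (Des, Lmod1 and Synm), where 8.53% of all tested genes lay lower and 18.5% differed in either direction. DESeq2 called the same 3, with 4.55% of its genes called lower, and limma-voom called 0. All 10 log2 fold changes were negative, between -1.02 and -0.60 with a median of -0.71, while the median of all tested genes was -0.005 and 50.7% lay below 0. The 10 genes divided by how they varied: 7 spread 3.48-fold or more among the controls and overlapped between the groups, and Des, Lmod1 and Synm spread 1.65-fold or less in controls and had groups that did not overlap, which held for 6.89% of all tested genes in the downward direction and 13.4% in either. This division was made after the values were seen and carries no test. In bulk RNA, fewer cells of a type and less RNA per cell cannot be told apart.

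**Figure D1:**
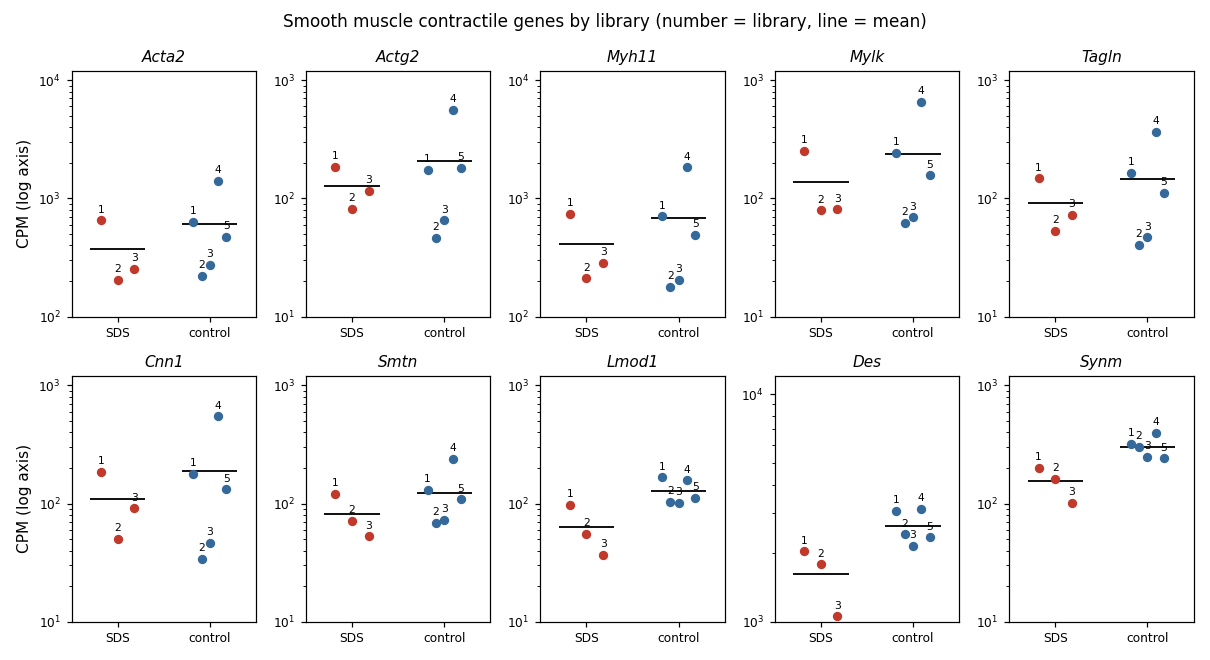
Counts-per-million (CPM, log axis) of the 10 smooth muscle contractile genes, with 1 point per library numbered as in the labels, SDS at the left (n = 3), control at the right (n = 5), and a line at each mean. Control library 4 is the highest control for every gene shown except Lmod1, where control library 1 is, and the groups are apart for Lmod1, Des and Synm.

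The actins form the thin filament. Acta2 (ENSMUSG00000035783, chr19:34241090-34255336, minus strand, mm10, as are all positions of whole genes), the alpha actin of vascular smooth muscle and of myofibroblasts, measured 652, 204 and 255 CPM in SDS libraries 1 to 3, against 636, 220, 273, 1406 and 470.1 CPM in control libraries 1 to 5. Actg2 (ENSMUSG00000059430, chr6:83512905-83536265, minus strand), the gamma actin of visceral smooth muscle, measured 184, 81.6 and 116 CPM in SDS, against 173, 46.6, 65.0, 559 and 181 CPM in controls. SDS library 1 and control library 4 were the highest of their groups for both, control libraries 2 and 3 were the lowest controls, and the groups overlapped throughout. Acta2 had a log2 fold change of -0.70 ± 0.65 (SE; edgeR quasi-likelihood adjusted p = 0.620), and Actg2 of -0.69 ± 0.75 (adjusted p = 0.681). The 95% intervals ran from -2.18 to 0.78 and from -2.41 to 1.03 on the log2 scale, so that a 2-fold difference either way for Actg2, or downward for Acta2, was within the error. The log2 ratio of Actg2 to Acta2 within a library, which does not depend on library scaling, was -1.83, -1.32 and -1.14 in SDS, against -1.88, -2.24, -2.07, -1.33 and -1.38 in controls. It averaged -1.43 ± 0.36 in SDS and -1.78 ± 0.41 in controls (SD), a difference of 0.35 that did not pass an exact two-sided permutation test over 56 divisions of the libraries (p = 0.214, adjusted p = 0.429 over 2 ratios, smallest possible p 0.0179).

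The motor and its switch had nearly the same profile over the libraries. Myh11 (ENSMUSG00000018830, chr16:14194527-14291408, minus strand), the smooth muscle myosin heavy chain, measured 742, 211 and 285 CPM in SDS, against 706, 179, 205, 1827 and 490.3 CPM in controls. Mylk (ENSMUSG00000022836, chr16:34745210-35002420, plus strand), the kinase that phosphorylates the regulatory light chain, measured 253, 79.4 and 80.7 CPM in SDS, against 243, 61.8, 69.2, 658 and 156 CPM in controls. Both were high in SDS library 1 and highest of all in control library 4, and low in SDS libraries 2 and 3 and in control libraries 2 and 3. The root-mean-square difference between their log2 profiles, each centred on its own mean over 8 libraries, was 0.12, although Myh11 ranged 10.2-fold and Mylk 10.6-fold among the controls alone. A control range of 10-fold or more was seen in 4 of the 10 genes (Cnn1, Actg2, Mylk and Myh11) and in 2.71% of all tested genes. Myh11 had a log2 fold change of -0.72 ± 0.80 (SE, adjusted p = 0.682) and Mylk of -0.79 ± 0.82 (adjusted p = 0.662), by the edgeR quasi-likelihood test.

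Of the proteins that bind the thin filament, Tagln and Cnn1 had the pattern of the motor, Smtn lay between, and Lmod1 had another one. Tagln (ENSMUSG00000032085, chr9:45929619-45936058, minus strand), or SM22 alpha, an actin cross-linking protein, measured 148, 52.9 and 72.3 CPM in SDS, against 164, 40.6, 46.8, 368 and 112 CPM in controls. Cnn1 (ENSMUSG00000001349, chr9:22099216-22109630, plus strand), the calponin that slows actomyosin cycling, measured 185, 50.1 and 91.1 CPM in SDS, against 179, 34.2, 46.5, 546 and 132 CPM in controls, the widest control range of the set at 15.9-fold. Control library 4 stood 4.64-fold and 6.13-fold above the median of the other controls for these genes. Smtn (ENSMUSG00000020439, chr11:3517523-3540612, minus strand), a smooth muscle protein that associates with actin stress fibres, measured 121, 71.9 and 53.0 CPM in SDS, against 130.0, 68.8, 72.6, 239.6 and 109 CPM in controls, with a control range of 3.48-fold. Log2 fold changes were -0.68 ± 0.73 for Tagln, -0.79 ± 0.88 for Cnn1 and -0.60 ± 0.45 for Smtn (SE), and the adjusted p by the edgeR quasi-likelihood test lay between 0.524 and 0.689. Tagln shares 1241 of its 1988 exonic bases with Gm48529 on the opposite strand, and Smtn 714 of 4380 with Gm11946. Gm48529 had 216, 131 and 129 counts in SDS, against 277, 69, 153, 517 and 227 counts in controls. The strand setting of the counting is not given in the sources used here, so reads of these partners cannot be told apart in those stretches.

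Lmod1 (ENSMUSG00000048096, chr1:135324807-135368065, plus strand), a leiomodin that starts new actin filaments, measured 97.8, 55.5 and 37.1 CPM in SDS, against 167, 103, 102, 158 and 112 CPM in controls. Every SDS library lay below every control, and SDS library 3 was the lowest. On the log2 scale the difference was -1.02 ± 0.32 (SE). Its adjusted p was 0.147 with edgeR quasi-likelihood and 0.0258 with DESeq2.

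The intermediate filament genes had the same order of groups. Des (ENSMUSG00000026208, chr1:75360329-75368579, plus strand), desmin, the muscle intermediate filament that links neighbouring contractile units, measured 2043, 1785 and 1058 CPM in SDS, against 3076.5, 2424, 2151, 3131 and 2350.5 CPM in controls. Synm (ENSMUSG00000030554, chr7:67730160-67759742, minus strand), synemin, which joins desmin filaments to the membrane skeleton, measured 199.7, 162 and 102 CPM in SDS, against 322, 303, 248, 399 and 241 CPM in controls. The SDS libraries were below all controls for both genes, and the controls spread 1.46-fold for Des and 1.65-fold for Synm. Des had a log2 fold change of -0.69 ± 0.25 (SE, adjusted p = 0.186) and Synm of -0.97 ± 0.25 (adjusted p = 0.0973), by the edgeR quasi-likelihood test. DESeq2 gave adjusted p of 0.0463 for Des and 0.00438 for Synm. Synm overlaps Gm45102 over 426 and Des overlaps Gm15179 over 220 exonic bases, on the opposite strand.

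Control library 4 decided the sign of 5 fold changes. Without it the log2 fold change was 0.13 for Actg2, 0.06 for Myh11, 0.01 for Tagln, 0.15 for Cnn1 and 0.06 for Mylk, and it stayed negative at -0.11 for Acta2 and -0.21 for Smtn. It was -0.93 for Lmod1, -0.61 for Des and -0.84 for Synm. SDS library 1 weighed the other way: without it the median of the 10 genes was -1.31. Without SDS library 3, in which Lmod1, Des and Synm were lowest, the log2 fold changes of these genes were -0.74, -0.45 and -0.74. Without control library 4 and SDS library 3 together, chosen after the values were seen, Synm was called lower, 1 of 10 where 4.39% of all tested genes were, and 3 of 10 fold changes were negative, with a median of 0.12.

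**Figure D2:**
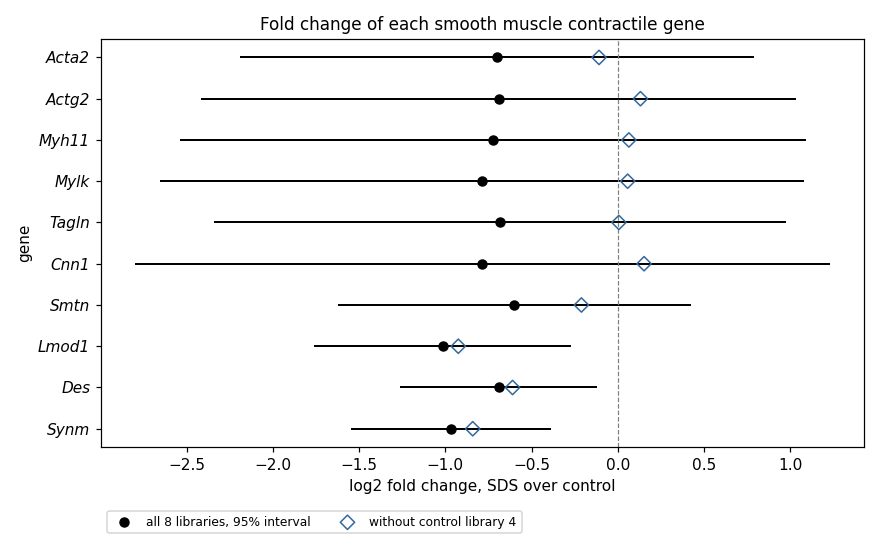
Log2 fold change of SDS over control for the 10 genes (filled points, all 8 libraries, with the 95% interval of the edgeR quasi-likelihood fit, not adjusted for the number of genes) and without control library 4 (open diamonds). The intervals of Acta2, Actg2, Myh11, Mylk, Tagln, Cnn1 and Smtn cross 0 and those of Lmod1, Des and Synm do not; the diamonds of Actg2, Myh11, Mylk, Tagln and Cnn1 lie at or above 0.

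The 10 genes also differed in profile over the libraries. From Myh11, the root-mean-square difference was 0.12 to Mylk, 0.12 to Tagln, 0.22 to Cnn1, 0.25 to Acta2, 0.27 to Actg2 and 0.54 to Smtn, against 0.89 to Lmod1, 0.94 to Des and 0.97 to Synm (log2, 8 libraries). From Des it was 0.17 to Synm, 0.26 to Lmod1 and 0.42 to Smtn. To the mean profile of 20 striated muscle markers it was 0.24 from Des, 0.26 from Synm, 0.30 from Lmod1 and 1.01 from Myh11. To the mean profile of the pericyte markers it was 0.17 from Des, 0.27 from Synm, 0.32 from Lmod1 and 0.83 from Myh11. To that of the adipocyte markers it was 0.996 from Myh11 and 1.84 from Des. All profiles rest on the same 8 libraries and depths, so these distances are a description. The log2 ratio of Des to Myh11 was 1.46, 3.08 and 1.89 in SDS, against 2.12, 3.76, 3.39, 0.78 and 2.26 in controls. Its means were 2.14 ± 0.84 in SDS and 2.46 ± 1.18 in controls (SD), and the exact two-sided permutation test gave p = 0.696 (adjusted p = 0.696).

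The levels of markers of other cell types ran alongside these patterns, and their part in them was not tested. Relative to the control mean, the smooth muscle genes averaged 0.22, -0.96 and -0.94 (log2) in SDS libraries 1 to 3 and 0.42, -0.96, -0.83, 1.37 and -0.00 in control libraries 1 to 5. The 11 adipocyte markers, among them Adipoq and Plin1, averaged 1.42, -2.14 and -0.69 in SDS and 1.21, -1.70, -3.25, 3.16 and 0.59 in controls. SDS library 1 and control library 4 were thus the highest of their groups in both lists, and also in the endothelial and pericyte lists given below. Adipocyte markers summed to 3505, 1106 and 1128 CPM in SDS and to between 1583 and 10211 CPM in controls. Of these sums Car3 alone was 1660, 872 and 690 CPM in SDS. In control libraries 1 to 5 Car3 was 1833, 1786.5, 1342, 3994.5 and 1353 CPM. Adipoq measured 130, 4.46 and 36.5 CPM in SDS, against 105, 6.36, 1.59, 407 and 55.8 CPM in controls, and its groups overlapped. The 20 striated muscle markers averaged -0.29, -0.98 and -1.08 in SDS and 0.44, 0.17, -0.31, 0.01 and -0.31 in controls. Control library 4, the highest in Myh11, was thus in the middle of the controls in the mean of the striated markers. Single markers of that list lay at both ends. Control library 4 was the highest control for some, such as Myh2 (680 CPM) and Myh7 (10.5 CPM). It was the lowest control for others, such as Myh4 (42.4 CPM), Actn3 (497 CPM) and Mybpc2 (246 CPM). Endothelial markers averaged 0.33, 0.19 and -0.48 in SDS and 0.30, -0.40, -0.47, 0.67 and -0.10 in controls, and pericyte markers 0.05, -0.46 and -1.08 in SDS and 0.17, -0.19, -0.34, 0.51 and -0.15 in controls. The squamous epithelial markers averaged 0.52, 0.41 and 0.75 in SDS and -0.26, 0.31, 0.56, -0.81 and 0.20 in controls, lowest in control library 4.

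**Figure D3:**
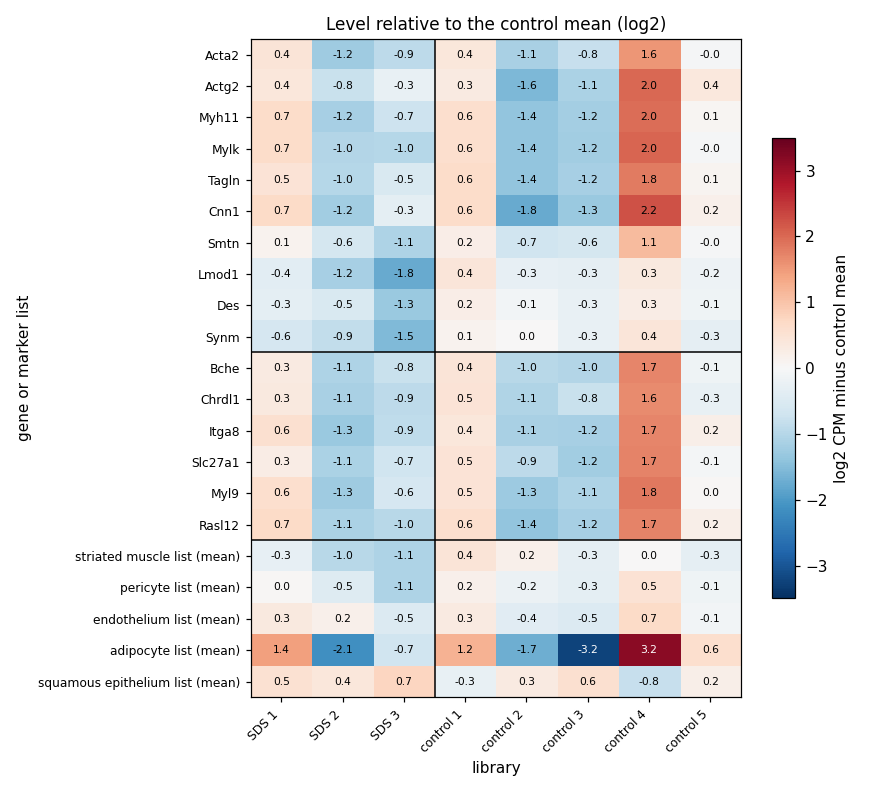
Level relative to the control mean (log2 CPM, colour and number) in each of the 3 SDS and 5 control libraries for the 10 smooth muscle genes (top), the 6 genes with the most similar profile (middle) and the means of 5 marker lists (bottom). The genes from Acta2 to Smtn are highest in control library 4, as are the adipocyte (3.16), endothelial (0.67) and pericyte (0.51) rows. Lmod1, Des and Synm are lowest in SDS library 3, as are the striated muscle (-1.08), pericyte (-1.08) and endothelial (-0.48) rows.

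Among 11492 other genes with a mean of at least 5 CPM, 6 lay nearest to the mean profile of the set without Des and Synm. Bche, butyrylcholinesterase, was the nearest, at a root-mean-square difference of 0.12 over 8 libraries. It measured 27.3, 10.3 and 12.6 CPM in SDS, against 29.6, 11.2, 10.6, 71.0 and 19.8 CPM in controls. Chrdl1, a secreted antagonist of bone morphogenetic proteins, followed at 0.14, Itga8, the integrin alpha 8 subunit, at 0.15 and Slc27a1, a fatty acid transporter, at 0.16. Myl9, the regulatory light chain that Mylk phosphorylates, lay at 0.16 and Rasl12, a Ras-like GTPase, at 0.17. Myl9 measured 269, 75.5 and 120 CPM in SDS, against 250.3, 74.0, 85.5, 647 and 185 CPM in controls. Log2 fold changes of these 6 lay between -0.80 and -0.68, which follows from their choice by profile over the same 8 libraries and adds no test.

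Genes that control contraction gave no call. Here and in the following lists Ppp1r12b, Cald1, Srf, Myocd, Fhl2, Smad3, Mylk2, Mylk4, Actb and Myh9 were chosen after their values were seen. Of 28 genes for light chains, tropomyosins, phosphatase subunits and calcium handling, among others, 0 passed the edgeR quasi-likelihood test in either direction, with 6 lower at an unadjusted p of 0.05 and 3 lower by DESeq2, where 8.53% and 4.55% of all genes were. The median log2 fold change was -0.44, and 23 of 28 lay below 0, where 50.7% of all tested genes did. Tpm2, a tropomyosin shared with slow striated fibres, measured 2457, 1906 and 1163 CPM in SDS, against 4005, 3455.5, 2866, 3887 and 3050.5 CPM in controls, and Tpm1 had a log2 fold change of -0.59 ± 0.24 (SE). Every SDS library lay below the controls for Tpm2, whose log2 fold change was -0.91 ± 0.26 (SE, edgeR quasi-likelihood adjusted p = 0.116). Ppp1r12b, a targeting subunit of myosin phosphatase, had -0.87 ± 0.26 (edgeR quasi-likelihood adjusted p = 0.126). Cald1, caldesmon, which blocks the actomyosin ATPase, had -0.60 ± 0.69.

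Dense bodies and adhesions anchor the filaments. Of 26 such genes 0 passed by edgeR, with 8 lower at an unadjusted p of 0.05 and 5 lower by DESeq2. Of all tested genes 8.53% lay lower unadjusted, and DESeq2 called 4.55% of its genes lower. The median log2 fold change of the 26 was -0.51. Flna, the actin cross-linker filamin A, measured 917, 562 and 444 CPM in SDS, against 795, 347, 427, 1685 and 687 CPM in controls. Vim, vimentin, had a log2 fold change of 0.23 ± 0.28 (SE).

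Regulators of the program lay on both sides of 0. Of 22 genes around SRF, myocardin, TEAD, TGF-beta and Notch, 0 passed by edgeR, with 4 lower and 1 higher at an unadjusted p of 0.05 and 3 lower by DESeq2. Of all tested genes 8.53% lay lower and 18.5% differed in either direction unadjusted, and DESeq2 called 4.55% of its genes lower. Log2 fold changes of the 22 ran from -1.02 to 0.53 with a median of -0.06. Of the 22, 16 lay below 0, where 50.7% of all tested genes did. Fhl2, a LIM-domain cofactor, had -0.85 with an adjusted p of 0.0560 from edgeR, and Smad3, a transducer of TGF-beta signals, had -0.64 with 0.0832. Srf measured 75.4, 80.0 and 64.0 CPM in SDS, against 85.8, 74.6, 103, 102 and 92.7 CPM in controls. Its groups overlapped and its log2 fold change was -0.32 ± 0.14 (SE, edgeR quasi-likelihood adjusted p = 0.247). Myocd, the myocardin gene, stood at 0.943, 0.316 and 0.459 CPM in SDS, against 1.195, 0.385, 0.222, 3.38 and 0.572 CPM in controls, where 3 counts are between 0.101 and 0.136 CPM of a library's total. Tead1, a DNA-binding partner of the YAP coactivator, had -0.63 ± 0.17, and Klf4, a Krüppel-like factor expressed in squamous epithelium, had -0.06 ± 0.30 (SE).

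Beside their relatives, the smooth muscle forms held shares that overlapped between the groups. Of the TPM of 6 muscle and cytoplasmic actins, Acta2 held 5.04%, 1.88% and 4.58% in SDS, against 3.60%, 1.39%, 1.99%, 7.98% and 3.32% in controls. Skeletal Acta1 held 74.6% ± 8.78 in SDS and 81.7% ± 3.47 in controls (SD). Among Myh11 and 3 non-muscle myosin heavy chains, Myh11 held 75.4%, 44.6% and 61.7% in SDS, against 74.7%, 42.1%, 43.2%, 89.1% and 65.1% in controls. Myh9, the widespread non-muscle heavy chain, had a log2 fold change of 0.28 ± 0.16 (SE). Cnn1 held 42.0% ± 16.3 of the calponins in SDS and 47.3% ± 22.9 in controls, and Tagln 33.1% ± 12.4 of the transgelins in SDS and 45.7% ± 23.7 in controls. Such shares were not tested between the groups.

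In the kinase, leiomodin and smoothelin families, as among the actins, the smooth muscle form was a minority share. Smtn held 15.4% ± 3.11 of the TPM of the smoothelins in SDS and 15.3% ± 4.94 in controls (SD). Mylk held 26.4%, 20.8% and 15.8% of the TPM of 4 myosin light chain kinases in SDS, against 13.1%, 3.36%, 4.74%, 41.6% and 12.1% in controls. Mylk2, the skeletal muscle kinase, measured 89.8, 37.4 and 51.5 CPM in SDS, against 230.5, 214, 186, 120 and 168 CPM in controls. Mylk2 had a log2 fold change of -1.62 ± 0.32 (SE, edgeR quasi-likelihood adjusted p = 0.0538) and Mylk4 of -1.72 ± 0.41 (adjusted p = 0.0809). Lmod1 held 11.7% ± 1.55 of the leiomodins in SDS and 13.2% ± 1.98 in controls, with Lmod2 at 65.2% ± 2.61 in SDS and 62.0% ± 4.11 in controls. Lmod3, the leiomodin of skeletal muscle, fell: it measured 78.9, 61.7 and 54.6 CPM in SDS, against 155, 137, 116, 135 and 125 CPM in controls. The difference was -1.04 ± 0.15 (log2, SE; edgeR quasi-likelihood adjusted p = 0.0309). DESeq2 called 8 of 20 relatives lower, where it called 4.55% of its genes lower, and their median was -0.53. By edgeR Lmod3 was the 1 call among the 20, where 0.425% of all tested genes were called lower. The call was lost without control library 1 (adjusted p = 0.0955), 2 (0.0867), 3 (0.0590) or 5 (0.0962) or without SDS library 2 (0.163). Actb, a cytoplasmic actin, had 0.09 ± 0.18 (SE).

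**Figure D4:**
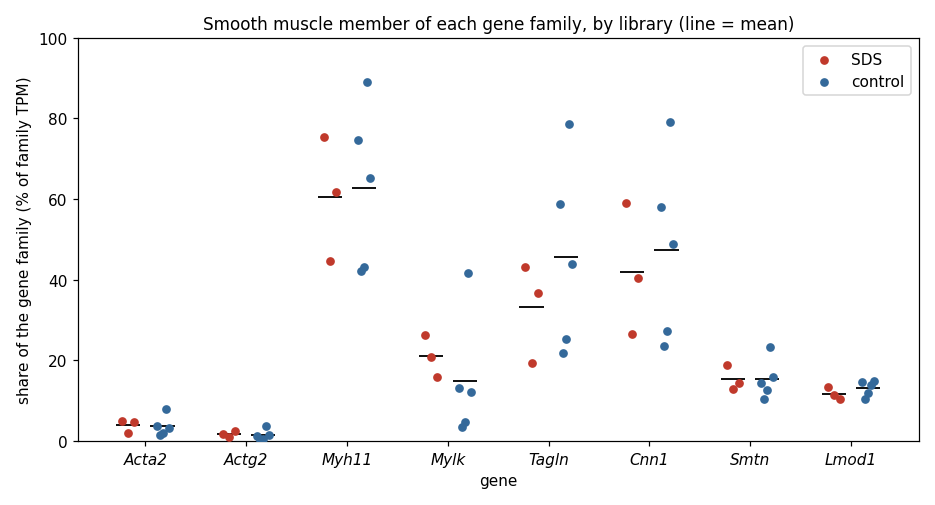
Share of each smooth muscle gene in the TPM of its own family, in percent, with 1 point per library (SDS at the left of each pair, n = 3; control at the right, n = 5) and a line at the mean. Myh11 runs from 42.1% to 89.1% over the 8 libraries and the groups overlap for all 8 genes shown.

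Markers of the cell types around smooth muscle gave calls in the epithelial and neutrophil lists alone, by edgeR. None of 20 striated muscle markers passed, although 15 lay lower at an unadjusted p of 0.05 and DESeq2 called 12 lower, where 8.53% of all genes lay lower and DESeq2 called 4.55% lower. Their median log2 fold change was -0.76; Acta1 had -0.78 ± 0.33 and Myh1 -0.57 ± 0.27 (SE). None of 10 pericyte markers passed (2 lower unadjusted, 1 by DESeq2, median -0.42), with Rgs5 at -0.61 ± 0.28 and Ndufa4l2 at -0.18 ± 0.28. Among the controls Ndufa4l2 was lowest in library 4 (59.5 CPM) and highest in library 3 (152 CPM), as was the squamous list. Rgs5 was instead highest in control library 4 (152 CPM). None of 10 endothelial markers passed (0 unadjusted and 0 by DESeq2, median -0.02), with Pecam1 at 0.15 ± 0.29 and Vwf at 0.40 ± 0.32. Markers of interstitial cells of Cajal, the pacemakers of gut muscle, gave 0 of 5 (1 lower and 1 higher unadjusted, 1 lower by DESeq2), with Ano1 at -0.57 ± 0.13 and Gja1, which epithelium also expresses, at 0.70 ± 0.27. Markers of enteric neurons and glia gave 0 of 9 tested (1 lower unadjusted, 1 lower by DESeq2), with Uchl1 at -0.43 ± 0.30, and Chat was too low to be tested. Fibroblast and myofibroblast markers gave 0 of 12 (0 unadjusted and 0 by DESeq2, median 0.36), with Dcn at 0.12 ± 0.16. Col3a1 measured 952, 3169 and 153 CPM in SDS, against 655, 658, 649, 1038 and 730.5 CPM in controls, so that the SDS libraries lay on both sides of the controls. Adipocyte markers gave 0 of 11 (0 unadjusted and 0 by DESeq2, median -1.11), with Cfd at -1.12 ± 1.53 and Car3 at -0.94 ± 0.45.

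In the squamous list Krt14, the basal keratin, rose by 2.55 ± 0.47 (log2, SE, edgeR quasi-likelihood adjusted p = 0.0493), and the other 9 of 10 did not pass. In the neutrophil list S100a9 and S100a8, the calprotectin subunits, rose by 6.15 ± 0.82 and 8.28 ± 1.41 (adjusted p = 0.0240 and 0.0424), and the other 4 of 6 tested did not pass. Ly6g, Retnlg and Trem1 of that list were too low to be tested. By edgeR 0.623% of all tested genes were called higher. DESeq2 called 4 higher in the neutrophil list and 2 in the squamous list, where it called 859 of 16502 genes higher. Relative to the control mean the neutrophil list averaged 4.72, 5.04 and 0.82 (log2) in SDS and -0.06, -0.75, 0.12, 0.54 and 0.16 in controls. Of SDS libraries 1 and 2, which were alike in this, the first was the highest and the other the lowest of its group in Acta2 and Myh11. Each of the 3 edgeR calls was lost when control library 1, 2, 3 or 5 or SDS library 1 or 2 was left out alone, with adjusted p up to 0.193 by the edgeR quasi-likelihood test. Those of Krt14 and S100a8 were also lost without control library 4, by limma-voom (0.0759 for Krt14, 0.0948 for S100a8) and with no filter on low counts (0.0512 and 0.0909), and that of Krt14 with a filter at 1 CPM (0.0508).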

How the data were processed

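Poly(A)-selected RNA, labelled as esophagus, was sequenced in 3 SDS and 5 control libraries (NEBNext Ultra II RNA kit, per the labels' protocols). The authors deposited raw counts per gene, summed over exons. The submitters' processing notes name bcl2fastq, FastQC, STAR 2.6.1c, Subread and mm10. Which annotation release, strand setting and multi-mapping rule applied is not given in the sources used here. Reads shared by near-identical copies, such as the actins, may have been dropped or divided between them.

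Counts from all 8 libraries entered 1 edgeR 4.0.16 quasi-likelihood fit (R 4.3.3, TMM scaling, robust). filterByExpr (minimum count 10, total 15) kept 17179 genes, all 10 smooth muscle genes among them. Genes were called at a Benjamini-Hochberg adjusted p of 0.05 over all of them. DESeq2 1.42.0, limma-voom 3.58.1, other scalings and filters and single libraries left out were the alternatives. TPM used the deposited exon lengths, and log2 CPM a prior count of 2. No 2 libraries were duplicates.

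The members and gene lists were chosen with earlier results of these data known. All 10 members are named, as are called genes of each other list (up to 4), otherwise its 2 most abundant, and the 6 nearest profiles. A gene that this rule names in 1 list is not reported here.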

Additional observations from a re-analysis of the deposited data

Results flagged for a closer look

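Actg2 was 559 CPM in control library 4, and Cnn1 was 546 CPM in the same library. In each case the gap to the next control, divided by the range of the 5 controls, was above Dixon's critical value of 0.71, at 0.739 for Actg2 and 0.717 for Cnn1. Of 12 sets of control values tested these 2 passed, where chance passes about 1 in 20, and on the log2 scale 0 passed. The 12 sets come from the same 5 libraries and several have similar profiles, so they are not separate trials. All other controls lay between 46.6 and 181 CPM for Actg2 and between 34.2 and 179 CPM for Cnn1. The SDS libraries lay between 81.6 and 184 CPM for Actg2 and between 50.1 and 185 CPM for Cnn1. Of the controls, library 4 was also the highest in the mean of the adipocyte, endothelial and pericyte markers, and their part in these values was not tested.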

How the results depend on the processing

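The count of genes called, 180, was 1610 by DESeq2, 0 with the replicate block and between 4 and 1222 with single libraries left out. It was 2077 without control library 4 and SDS library 3 together, which was chosen after seeing the data. Smooth muscle genes called lower were 0, but 3 by DESeq2 and 1 (Synm) without that pair. Replicate numbers did not pair the libraries (correlations of 0.311, -0.0056 and 0.307). No SDS library carries the number of control library 4 or 5, so with the block these controls do not enter the difference. With the block, signs turned for Actg2 (0.57), Myh11 (0.26), Tagln (0.29), Cnn1 (0.52), Mylk (0.21), Flna (0.32), Cfd (1.14), Bche (0.0013), Itga8 (0.11), Slc27a1 (0.049), Myl9 (0.21), Rasl12 (0.17), Myocd (0.057), Cald1 (0.19), Chrm3 (0.25), Kcnmb1 (0.45) and Mcam (0.27), and the median of the 10 genes was 0.08. With 1 library left out, that median lay between -1.31 and -0.05, and log2 fold changes that turned lay between -1.05 and 0.13 for Actg2, -1.46 and 0.064 for Myh11, -1.22 and 0.0056 for Tagln, -1.41 and 0.15 for Cnn1, -1.57 and 0.056 for Mylk, -0.65 and 0.19 for Flna, -0.25 and 0.11 for Klf4, -0.084 and 0.39 for Pecam1, -0.43 and 1.48 for Col3a1, -0.0080 and 0.25 for Dcn, -2.85 and 0.21 for Cfd, -1.34 and 0.061 for Myl9, -1.15 and 0.084 for Cald1, -0.0049 and 0.20 for Actb, -3.78 and 0.19 for Chrm2, -1.52 and 0.19 for Chrm3, -1.23 and 0.026 for Kcnmb1, and -1.23 and 0.13 for Mcam. The difference of the Des to Myh11 ratio lay between -0.79 and 0.023, and the Actg2 to Acta2 difference was 0.21 to 0.55. The block gave 0.63 for the Actg2 to Acta2 difference and -0.95 for Des to Myh11. Beyond which libraries enter each fit, the cause of these turns was not tested. Other scalings and filters changed no call or sign of the 10 genes. With 3 and 5 libraries, the spread between libraries and not the count depth sets the width of the intervals.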

Other observations

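Of 28 genes that control contraction, 3 ranged 10-fold or more among the controls (Chrm2, Chrm3 and Kcnmb1), where 2.71% of all tested genes did. These and Mcam, of the pericyte list, were chosen after their values were seen. Other genes of the list came close to that range, such as Myl9 (8.75-fold), Ryr2 (7.83-fold), Ppp1r14a (7.45-fold) and Cald1 (7.03-fold). Others ranged less, such as Prkg1 (4.05-fold), Kcnma1 (3.44-fold), Cacna1c (3.24-fold) and Gucy1b1 (2.59-fold). Chrm2, the muscarinic M2 receptor through which acetylcholine acts on visceral muscle, measured 32.5, 2.64 and 1.54 CPM in SDS, against 33.6, 3.13, 1.40, 101.5 and 4.31 CPM in controls. Its control libraries spanned 72.3-fold, and the groups overlapped. Chrm3, the M3 receptor that couples to calcium release, measured 4.598, 1.27 and 1.00 CPM in SDS, against 3.48, 1.54, 0.628, 8.28 and 2.33 CPM in controls. Kcnmb1, the smooth muscle subunit of the large-conductance potassium channel, measured 7.39, 3.30 and 2.96 CPM in SDS, against 8.33, 1.44, 2.14, 18.8 and 5.91 CPM in controls. Mcam, an adhesion protein of vascular mural cells and endothelium, measured 66.8, 27.2 and 20.6 CPM in SDS, against 61.4, 18.01, 19.0, 139.8 and 41.3 CPM in controls, a range of 7.76-fold. Control library 4 was the highest library for all 4 genes, and none passed the edgeR quasi-likelihood test, with adjusted p between 0.693 and 0.788.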
